A study of Homo sapiens with 12 samples.

Results

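The translation initiation factors are the proteins that bring the small ribosomal subunit, the initiator methionyl-tRNA and an mRNA together and set the ribosome at the start codon. Gene names that begin with EIF and a digit from 1 to 6 were taken from the deposited transcript table, without the eIF2 kinases and the 4E-binding proteins, whose names contain AK or EBP, and without numbered pseudogenes. Of 107 matching names, 10 were dropped as kinases or binding proteins and 48 as pseudogenes, which left 49 of the 56537 gene names in the table. The 49 names held 773 transcripts, of which 603 matched an Ensembl transcript in full (class code =) and 170 were Cufflinks assemblies that share a splice junction with one (class code j). By name they form groups of 5 for eIF1, 11 for eIF2, 14 for eIF3, 13 for eIF4, 5 for eIF5 and 1 for eIF6, and 5 of the 11 eIF2 names are subunits of eIF2B. The rule reads names, so it also takes in proteins with other main roles: EIF4A3, the helicase of the exon junction complex, EIF4ENIF1, a transporter of eIF4E, EIF1AD, named for its likeness to eIF1A, and the near copies EIF3CL, EIF2S3L and EIF5AL1, which can share reads with EIF3C, EIF2S3 and EIF5A.

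In the textbook order of events, eIF2 carries the initiator tRNA as a complex with GTP, eIF2B reloads eIF2 with GTP, and eIF1, eIF1A, eIF5 and the many-subunit scaffold eIF3 hold the small subunit in a state that can scan. The cap complex eIF4F consists of the cap-binding protein eIF4E, the RNA helicase eIF4A and the scaffold eIF4G, with eIF4B and eIF4H as helper proteins of the helicase. eIF5B joins the ribosomal subunits, eIF6 keeps free large subunits apart, and eIF5A acts mainly in elongation. Low oxygen is known to slow initiation through phosphorylation of eIF2 and through dephosphorylated eIF4E-binding proteins that hold eIF4E, neither of which can be seen in RNA.

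The cells were HCT116, an established human colorectal carcinoma line, at 21% oxygen (0 h) or after 1, 2 and 24 h at 1% oxygen, with 3 libraries of poly(A) RNA at each of the 4 time points and no other treatment. All 12 libraries come from 1 cell line, so the comparisons describe that line. Values are FPKM (fragments per kilobase of transcript, scaled to the mapped fragments of the library) as the authors deposited them, summed over the transcripts of a gene name. FPKM keeps no count, so the depth of each library cannot be read from the table. An SD given is the spread over 3 libraries, and an SE is that of the fit over all 12 libraries.

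The treatment and the cell type were checked first. All 6 hypoxia genes (CA9, VEGFA, NDRG1, ANKRD37, EGLN3 and PDK1) were higher at 24 h, with log2 fold changes of 1.90 to 5.45. Libraries of the same time point correlated with r of 0.965 to 0.988 across genes. The 6 epithelial markers summed to 2034 to 2857 FPKM at 0 h and to 2595 to 2888 at 24 h. The 8 markers of other cell types summed to 4.69 to 5.13 FPKM at 0 h and to 17.4 to 21.3 at 24 h. Of these 8, PECAM1 was listed at 0 in every library, PTPRC, CD3E and COL1A2 reached at most 0.0301 FPKM and ALB at most 0.230. Most of the difference lay in CD68, which went from 1.78 to 2.31 FPKM at 0 h to 6.88 to 14.2 at 24 h, and from COL1A1, which went from 1.79 to 2.16 to 5.75 to 8.79. CD68 lies in the same Cufflinks locus as EIF4A1, and its part in the values of EIF4A1 was not tested.

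Because the direction at 24 h is set beside the annotated start of the mRNA below, the first bases of 10 initiation factor mRNAs are shown with the 20 bases before them. Many mRNAs of the translation apparatus begin with a C and a run of pyrimidines, the 5′ terminal oligopyrimidine tract through which mTOR and LARP1 control their translation and stability. The windows run 5′ to 3′ on the transcribed strand, were read from the RefSeq promoter table (GRCh38.p14) and were placed on GRCh37, the build of the deposited files, by an exact match of the 300 bases of each entry. Capitals mark the first 5 transcribed bases at the RefSeq start. The 10 genes were chosen after their values were seen: in the first 5 the capitals are a C followed by 4 pyrimidines, and in the last 5 they are not. On FPKM the first 5 hold 3 genes that rose and 2 that did not pass the test (EIF3D and EIF2S3), and the last 5 all fell. Not shown are EIF3K and EIF3M, which have the run and fell, and EIF4E3 and EIF4G3, which lack it and rose on FPKM. On TPM over all transcripts none of EIF4B, EIF4A2, EIF3F, EIF4E3 and EIF4G3 passed as higher, and the last 3 had negative values.
EIF4B: cgtgattgcctcatccgggtCTTTTgcgtt
EIF4A2: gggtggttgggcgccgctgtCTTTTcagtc
EIF3F: gtcatttccgcttccgcctcCTTCTttctc
EIF3D: ccgctgcgcgcgcatgtttcCTCTTttcct
EIF2S3: cagccggggtgatttccttcCTCTTttggc
EIF4A1: tcgataggcgggcactccgcCCTAGtttct
EIF4E: cccccccttctggagcggttGTGCGatcag
EIF2S1: cgcatgcgaggaggttccgcATGCGcggtg
EIF2B1: cggaagaggggtacggaagtGCGCCggaag
EIF3J: tgactcacctccgccgtgctAACTCctcgc

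Each window spans the promoter and the first bases of exon 1. On the plus strand lie EIF4B (chr12:53400220-53400249), EIF4A2 (chr3:186501346-186501375), EIF3F (chr11:8008864-8008893), EIF2S3 (chrX:24073053-24073082), EIF4A1 (chr17:7476123-7476152), EIF2S1 (chr14:67827025-67827054) and EIF3J (chr15:44829325-44829354). On the minus strand lie EIF3D (chr22:36925204-36925233), EIF4E (chr4:99850275-99850304) and EIF2B1 (chr12:124118224-124118253).

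The first question was whether the initiation factors as a set moved with time in hypoxia. At 1 h and 2 h no member passed the limma test on FPKM, and at 24 h most members were lower and a minority higher. On TPM over all transcripts 30 of the 47 passed at 2 h, where 54.5% of all names did. Of the 49 names, 47 had a summed FPKM above 0.5 in at least 3 libraries and were tested, and EIF1AY and EIF4E1B were not. At 1 h, 0 of the 47 had an adjusted p under 0.05 and 0 an unadjusted p under 0.05, against 0.006% and 4.61% of the 16680 gene names tested. At 2 h, 0 were called with a log2 fold change beyond 1 and an adjusted p under 0.01 (0.018% of all names), 0 had an adjusted p under 0.05 (0.312% of all names, with 0.216% higher) and 10 an unadjusted p under 0.05 (15.3% of all names), and the lowest adjusted p of a member was 0.196, that of EIF4G1.

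At 24 h, 35 of the 47 members had an adjusted p under 0.05, 8 of them higher and 27 lower, against 55.3% of all gene names, 25.0% higher and 30.3% lower. At an unadjusted p under 0.05 there were 38, against 60.0% of all names. With a log2 fold change beyond 1 and an adjusted p under 0.01, the thresholds by which a gene is called here, 12 members were called, 2 higher (EIF4A2 and EIF4B) and 10 lower (EIF1AX, EIF2B1, EIF2B3, EIF2S1, EIF3J, EIF4G1, EIF5, EIF5A, EIF5B and EIF6). EIF4A2 was not called without replicate 3 of 0 h or replicate 2 of 24 h, where its log2 fold change was 0.97 and 0.89, and EIF5A was not called without replicate 3 of 24 h (-0.94). EIF2B2 and EIF2B4 were called lower in addition without replicate 3 of 0 h (-1.05 and -1.03) or replicate 1 of 24 h (-1.17 and -1.07). Over all names 18.3% were called, 8.76% higher and 9.51% lower, so the share of members called lower (21.3%) was above that of all names and the share called higher (4.26%) below it. The libraries of 0 h and 24 h did not overlap for 38 members (80.9%), 10 higher and 28 lower, against 60.4% of all names. The median log2 fold change was -0.49 over the members and -0.05 over all names.

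**Figure D1:**
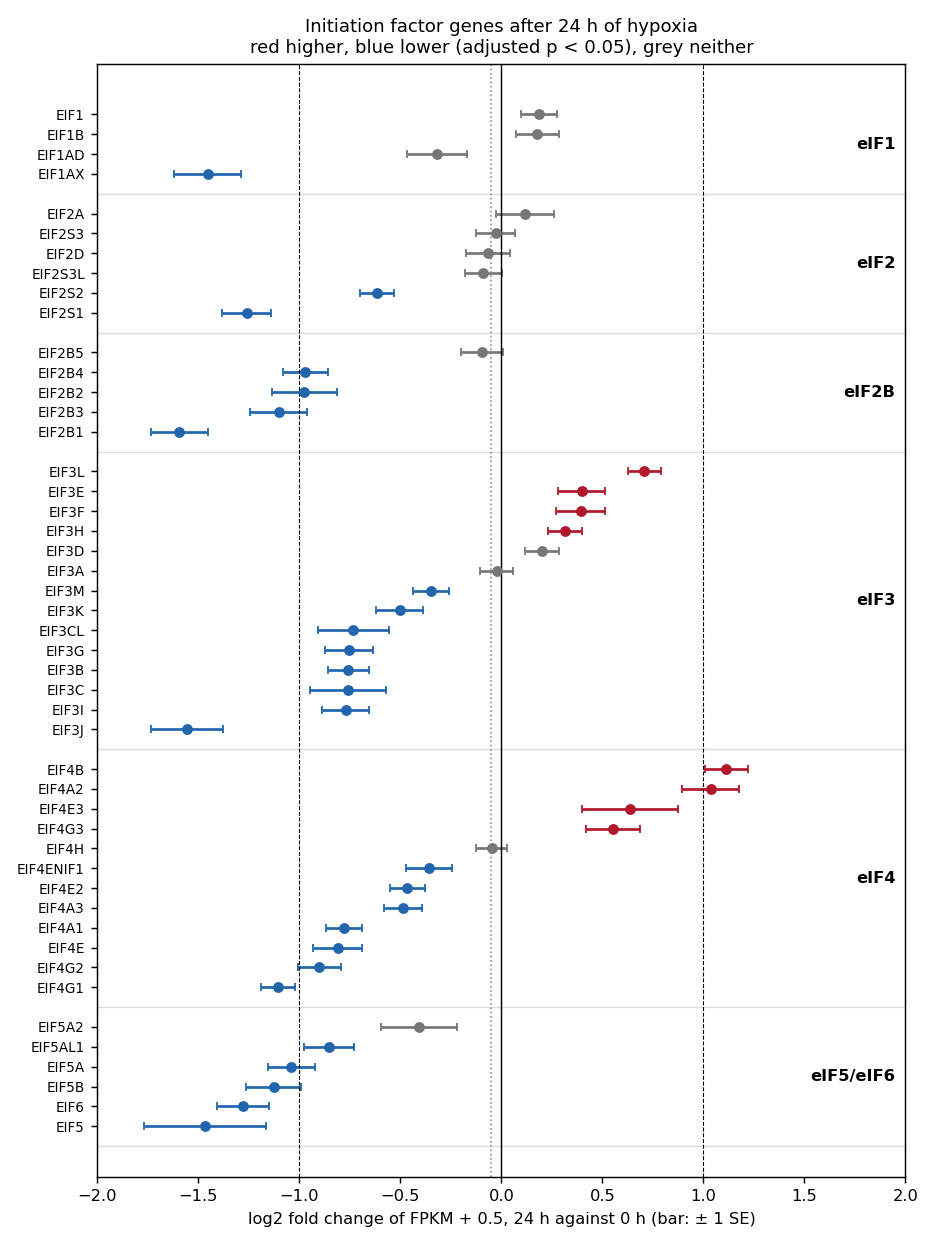
Log2 fold change of summed FPKM + 0.5 at 24 h against 0 h for the 47 tested members (points; bars ± 1 SE; 3 libraries per time point), sorted within groups, with dashed lines at the fold threshold and a dotted line at the median of all gene names (-0.05). EIF4B and EIF4A2 lie highest and EIF2B1 and EIF3J lowest on FPKM; on TPM over all transcripts no member passes as higher, and all members above 0 except EIF4A2 and EIF4B change sign (EIF3E, EIF3F, EIF3H, EIF3L, EIF4E3 and EIF4G3, and EIF1, EIF1B, EIF2A and EIF3D, which did not pass on FPKM).

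The direction of a small rise depends on how the libraries are scaled. On rescaling to TPM over all transcripts, the median log2 fold change of all names at 24 h was -0.67, beside -0.05 on FPKM. Transcripts under 300 bases weigh heavily on that scale, since in each library they held between 57.0% and 87.6% of all FPKM. Each scaling multiplies all genes of a library alike before 0.5 is added. A gene's place relative to the median of all names is therefore no separate evidence of its direction. That place still moved on TPM over all transcripts, where EIF3E went from 0.40 to -0.48 and EIF3H from 0.31 to -0.56. On TPM over all transcripts, no member was higher with an adjusted p under 0.05, and 6 of the 8 that rose had a negative log2 fold change: EIF3E, EIF3F, EIF3H, EIF3L, EIF4E3 and EIF4G3. The paper made each library from a set amount of total RNA and FPKM is relative within a library, so the amount of RNA per cell cannot be read here.

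Summed over the 49 names, initiation factor FPKM was 8723 ± 370 (SD, n = 3) at 0 h and 7228 ± 220 at 24 h, with no overlap. The eIF3 names went from 3327 ± 119 to 3149 ± 83.4 in sum, with some subunits higher and others lower. The eIF1 names went from 649 ± 40.5 to 692 ± 32.6, which overlap, and the eIF2 names from 942 ± 57.9 to 622 ± 35.4. The eIF4 names went from 2504 ± 120 to 2174 ± 148, and the eIF5 names from 1137 ± 42.1 to 524, with libraries at 457 to 603. In group medians by library at 24 h, EIF6, alone in its group, lay at -1.14 to -1.37, below eIF2B and eIF5.

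**Figure D2:**
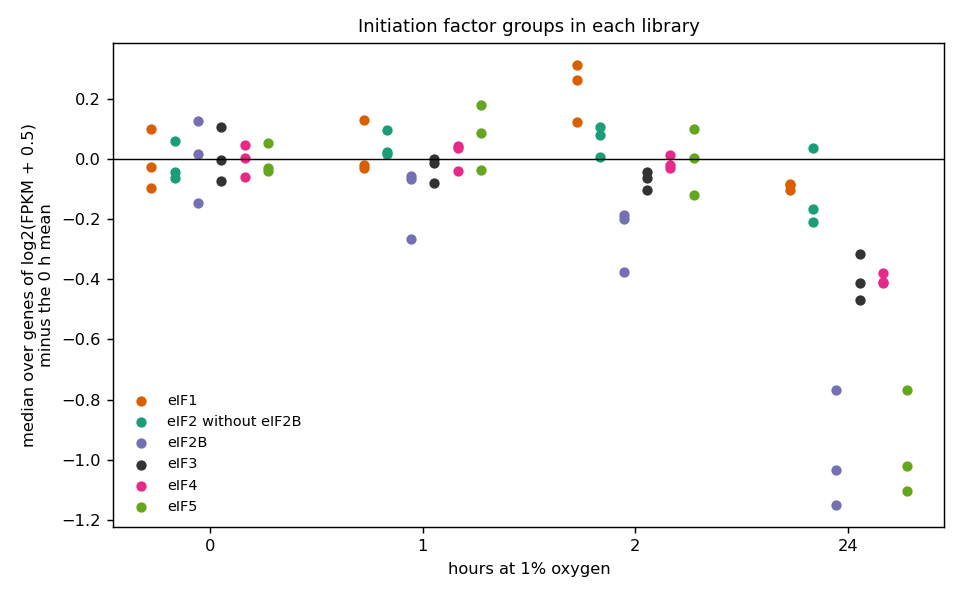
Median over the tested genes of each group of log2(FPKM + 0.5) minus the gene's own 0 h mean, for each of the 12 libraries (points; the time axis is not to scale). At 24 h the 3 libraries lie between -0.77 and -1.15 for eIF2B and between -0.77 and -1.11 for eIF5, whereas eIF2 without eIF2B lies between -0.21 and 0.03; the single eIF6 gene is not drawn.

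Among the factors that open the scanning complex, EIF1AX fell at 24 h while EIF1, the most abundant of the group, did not pass the test. EIF1AX encodes eIF1A, which binds the decoding site of the small subunit. Its level was 42.1, 36.1 and 39.9 FPKM at 0 h, 36.7 to 53.7 at 1 h, 43.1 to 57.1 at 2 h, and 11.2, 15.0 and 16.4 at 24 h. All 3 libraries at 24 h lay below all others, with a log2 fold change of -1.45 ± 0.17 (SE; adjusted p = 1.8e-05). Reads of EIF1AX are uncertain, because its 2 numbered pseudogenes carry 85.2% of the FPKM of gene and copies together, and with the copies added the fold change was -1.63. EIF1, which guards start codon choice and whose libraries came close but did not overlap, had 524 ± 35.1 FPKM at 0 h and 597 ± 34.2 at 24 h (log2 fold change 0.19, adjusted p = 0.093, and 0.040 without replicate 3 of 24 h), and its paralogue EIF1B had 38.0 ± 3.54 and 43.0 ± 1.49 (0.18, adjusted p = 0.17). EIF1AD had a log2 fold change of -0.32 (adjusted p = 0.083). It passed as lower without replicate 3 of 0 h (-0.42, adjusted p = 0.043) and on TPM over all transcripts (-1.16, adjusted p = 0.025).

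The 3 subunits of eIF2 did not change alike at 24 h. EIF2S1, the alpha subunit that carries the phosphorylated serine, fell from 405, 375 and 335 FPKM at 0 h to 149, 162 and 152 at 24 h. That is 2.41-fold lower, with a log2 fold change of -1.26 ± 0.12 (adjusted p = 4.9e-06), and the 6 libraries of 1 h and 2 h lay between 311 and 415 FPKM. Noncoding types held 69.1% of EIF2S1 at 0 h and 69.9% at 24 h, and its coding transcripts alone fell from 115 to 46.4 FPKM on average with no overlap. EIF2S2, the beta subunit, fell from 93.7, 90.4 and 98.9 FPKM to 55.8, 66.6 and 62.0 (-0.62 ± 0.09, adjusted p = 7.9e-05), and its 4 numbered pseudogenes held 54.6% of the joint FPKM. EIF2S3, the gamma subunit that binds GTP and the tRNA, was at 109, 108 and 115 FPKM at 0 h and at 96.1, 111 and 120 at 24 h, which overlap (-0.03 ± 0.10, adjusted p = 0.83). The value of EIF2S3 depends on which transcripts are summed, since over class code = alone it was 0.46 (adjusted p = 0.0053). Its near copy EIF2S3L was at 76.4 ± 4.07 and 71.9 ± 7.52 FPKM.

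The alternative carriers of the initiator tRNA did not pass the test. EIF2A was at 93.9 ± 8.56 FPKM at 0 h and 103 ± 19.8 at 24 h, and EIF2D at 32.3 ± 4.29 and 30.7 ± 3.11. Set against EIF2S1 in the same library, both stood higher at 24 h: the ratio of EIF2A to EIF2S1, each as FPKM + 0.5, went from 0.257, 0.236 and 0.269 to 0.542, 0.679 and 0.778, and that of EIF2D to EIF2S1 from 0.0879 to 0.201 on average.

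Of the 5 subunits of eIF2B, the exchange factor that phosphorylated eIF2 inhibits, 4 fell at 24 h (30.3% of all names were lower). EIF2B1, the alpha subunit of the regulatory part, fell from 39.7, 35.3 and 30.2 FPKM to 10.4, 11.2 and 12.1 (-1.59 ± 0.14, adjusted p = 2.8e-06). EIF2B2, EIF2B3 and EIF2B4 fell by 0.98, 1.10 and 0.97 on the log2 scale, and none overlapped between 0 h and 24 h, as for 60.4% of all names. EIF2B5, the catalytic epsilon subunit, was at 42.3, 38.8 and 35.3 FPKM at 0 h and 40.3, 34.5 and 33.9 at 24 h, which overlap (-0.10 ± 0.10, adjusted p = 0.46). The median over the 5 was -0.98. The median over all 11 eIF2 names was -0.62, and over the 6 without eIF2B -0.08.

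**Figure D3:**
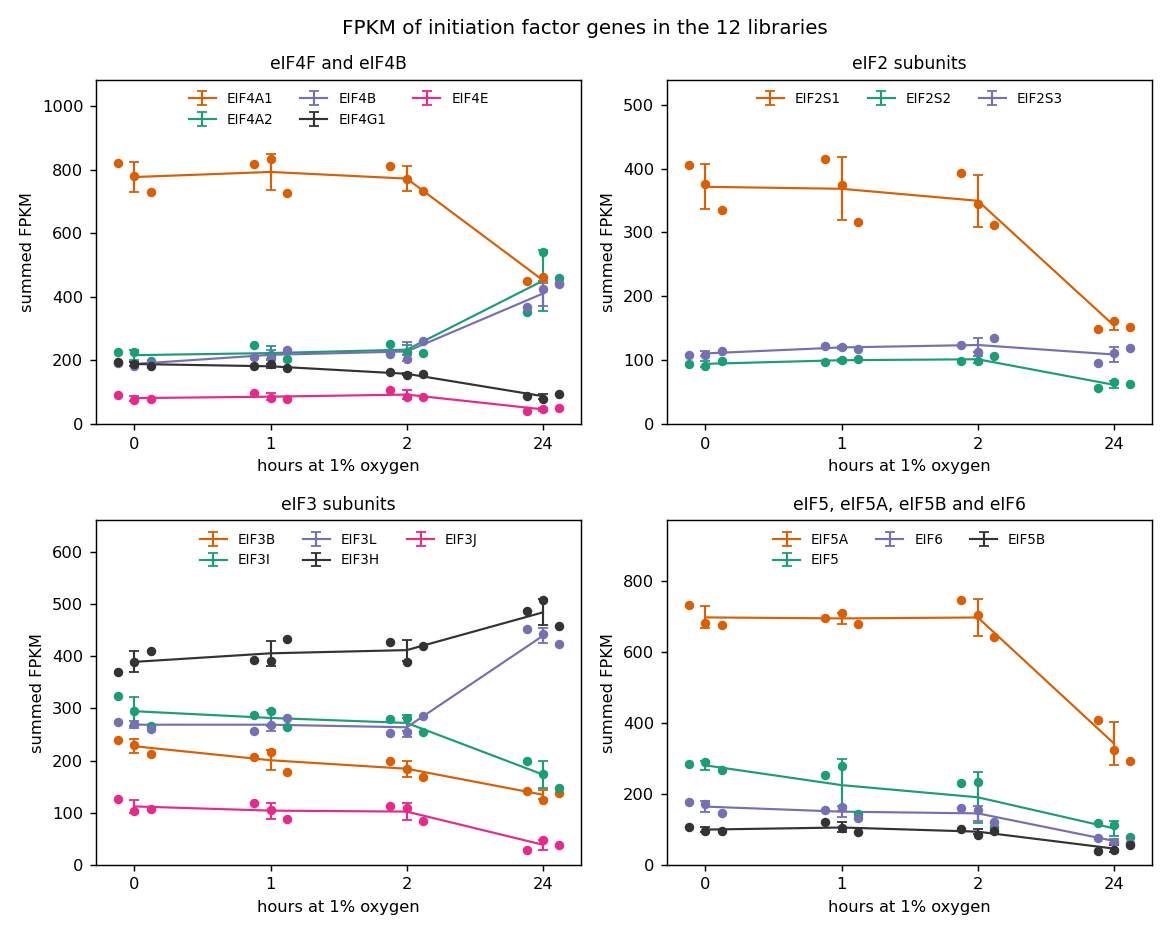
Summed FPKM of 17 initiation factor genes in the 12 libraries (points), with the mean and SD of 3 libraries at each time point (lines and bars; the time axis is not to scale). EIF4A2 and EIF4B rise at 24 h to 352 to 542 FPKM, near EIF4A1 at 443 to 462, and EIF2S1 falls to 149 to 162 FPKM while EIF2S3 stays at 96.1 to 120; on TPM over all transcripts none of EIF4A2, EIF4B, EIF3L and EIF3H passes as higher.

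The subunits of eIF3 split in direction. EIF3L, EIF3E, EIF3F and EIF3H rose at 24 h, 8 subunit names fell, and EIF3A and EIF3D did not pass the test. Over all names 25.0% were higher and 30.3% lower. EIF3L rose from 275, 271 and 261 FPKM to 452, 443 and 423 with no overlap (0.71 ± 0.08, adjusted p = 1.9e-05; -0.16 on TPM over all transcripts). Nearly all of this FPKM was in transcripts of noncoding types, 98.3% at 0 h and 98.9% at 24 h, led by the retained-intron transcripts ENST00000477256 (52.4% of the gene at 0 h) and ENST00000482600 (36.0%). Coding EIF3L transcripts held 4.73, 4.47 and 4.72 FPKM at 0 h and 4.31, 5.32 and 4.37 at 24 h, which overlap, so the rise lay in the noncoding types. EIF3E, the most abundant eIF3 gene, went from 413 ± 30.1 to 547 ± 81.5 FPKM (0.40, adjusted p = 0.012; -0.48 on TPM over all transcripts), and its adjusted p was 0.057 without replicate 2 of 0 h and 0.053 on TPM without transcripts under 300 bases. EIF3F went from 89.7 ± 6.94 to 119 ± 22.3 (0.39, adjusted p = 0.014; -0.47 on TPM over all transcripts), with an adjusted p of 0.055 without replicate 3 of 0 h and 0.054 when only the 6 libraries of the contrast were fitted. Of its FPKM, 95.1% at 0 h lay in ENST00000537635, which has no type in the annotation used. EIF3H went from 389 ± 20.3 to 484 ± 24.9 (0.31, adjusted p = 0.0079; -0.56 on TPM over all transcripts). Numbered pseudogenes held 42.2% of the joint FPKM for EIF3F and 14.6% for EIF3E.

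The falls in eIF3 differed in size. EIF3B, EIF3G and EIF3I, which bind each other as a mobile module of the complex, fell by 0.76, 0.75 and 0.77 on the log2 scale. EIF3C and its copy EIF3CL fell by 0.76 and 0.73, and reads of this pair cannot be assigned with certainty. EIF3K fell by 0.50 and EIF3M by 0.35. EIF3J, a loosely bound subunit at the mRNA entry channel, fell from 126, 104 and 106 FPKM to 28.9, 47.4 and 38.9 (-1.56 ± 0.18, adjusted p = 1.8e-05), 2.92-fold lower with no overlap. EIF3A, the largest subunit of the complex, was at 220 ± 3.61 and 217 ± 19.3 FPKM (-0.02, adjusted p = 0.82).

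A division of eIF3 made after these values were seen follows the known make-up of the complex. Of the 6 subunits that budding yeast also has (EIF3A, EIF3B, EIF3C, EIF3G, EIF3I and EIF3J), 0 rose and 5 fell, with a median of -0.76, beside 25.0% higher and 30.3% lower over all names. Of the 7 that mammals have beyond these (EIF3D, EIF3E, EIF3F, EIF3H, EIF3K, EIF3L and EIF3M), 4 rose and 2 fell, with a median of 0.31, which was -0.56 on TPM over all transcripts and 0.12 relative to the median of all names there. Among the 4 that rose, EIF3L did so in noncoding types, and EIF3F did not pass in each fit and lay mostly in a transcript without a type. EIF3CL, the copy of EIF3C, was left out of the division. Since the division was not set beforehand, no test is given for it.

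In the cap complex, the main gene of each component fell, while EIF4A2, EIF4B and EIF4G3 rose on FPKM. On TPM over all transcripts none of these 3 passed as higher. EIF4E, the cap-binding protein, fell from 90.2, 75.7 and 79.2 FPKM to 42.3, 47.4 and 49.2 (-0.81 ± 0.12, adjusted p = 0.00015). EIF4G1, the main scaffold, fell from 196, 188 and 183 FPKM to 88.6, 79.95 and 94.7, with 155 to 163 at 2 h, and had the lowest adjusted p of the 47 members (-1.11 ± 0.08, adjusted p = 9.9e-07). EIF4A1, the most abundant eIF4 gene, fell from 822, 780 and 729 FPKM to 451, 462 and 443 (-0.78 ± 0.09, adjusted p = 1.9e-05), and its numbered pseudogenes held 24.9% of the joint FPKM.

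EIF4A2, the second eIF4A helicase, rose from 227, 226 and 198 FPKM at 0 h to 352, 542 and 459 at 24 h, after 205 to 249 at 1 h and 224 to 252 at 2 h. All 24 h libraries lay above all others (1.04 ± 0.14, adjusted p = 6.8e-05; 0.16 on TPM over all transcripts). EIF4B, which raises the activity of the helicase, rose from 193, 182 and 192 FPKM to 367, 424 and 441 (1.11 ± 0.11, adjusted p = 5.2e-06; 0.24 on TPM over all transcripts), and its 8 numbered pseudogenes held 41.4% of the joint FPKM. EIF4H, a smaller protein with a like role, was at 214 ± 3.38 and 208 ± 13.6 FPKM (-0.05, adjusted p = 0.61), with 32.8% of the joint FPKM in numbered pseudogenes. EIF4G3 rose from 12.8 ± 0.886 to 19.3 ± 3.89 FPKM (0.55, adjusted p = 0.0038; -0.27 on TPM over all transcripts).

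EIF4E3, a weak cap binder, was at 1.73 to 2.38 FPKM at 0 h and 2.80 to 4.13 at 24 h (0.64, adjusted p = 0.038). Without replicate 1 or 2 of 0 h, or replicate 2 or 3 of 24 h, it did not pass (adjusted p 0.067 to 0.13). Nor did it pass without the filter on low values (0.089) or on TPM without transcripts under 300 bases (0.078). Its value was -0.072 on TPM over all transcripts. EIF4G2, a scaffold that lacks the part binding eIF4E, fell from 531, 520 and 488 FPKM to 252, 290 and 283 (-0.90 ± 0.11, adjusted p = 2.2e-05). EIF4A3, EIF4E2 and EIF4ENIF1 fell by 0.49, 0.47 and 0.36, and the value of EIF4ENIF1 was -0.03 over class code = alone and its adjusted p 0.054 without replicate 1 of 0 h.

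Of the eIF5 and eIF6 names, all fell except EIF5A2, which did not pass the test on FPKM with all libraries (30.3% of all names were lower). EIF5, which triggers GTP hydrolysis on eIF2, was at 284, 291 and 267 FPKM at 0 h and 117, 113 and 78.1 at 24 h (-1.47 ± 0.30, adjusted p = 0.0013). Its 1 h and 2 h values were uneven, since replicate 3 of 1 h was at 142 FPKM beside 253 and 280, and replicate 3 of 2 h at 107 beside 231 and 233. EIF5B fell from 107, 94.96 and 96.4 FPKM to 40.2, 41.0 and 55.8 (-1.13 ± 0.14, adjusted p = 2.7e-05). EIF6 fell from 176, 171 and 146 FPKM to 74.2, 65.0 and 62.8 (-1.28 ± 0.13, adjusted p = 6.9e-06). EIF5A, the most abundant of these, fell from 734, 683 and 678 FPKM to 409, 324 and 293 (-1.04 ± 0.12, adjusted p = 1.6e-05). Its paralogue EIF5A2 was at 6.93 to 11.3 FPKM at 0 h and 5.19 to 7.45 at 24 h, which overlap (-0.41, adjusted p = 0.082, and 0.034 without replicate 1 of 0 h), and its copy EIF5AL1 fell by 0.85.

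Ratios between related factors were taken within each library, on FPKM + 0.5. Of 11 pairs, 8 did not overlap between 0 h and 24 h, and for each of these the exact two-sided permutation test gave p = 0.1, the smallest that 3 against 3 libraries can give, or 0.14 after adjustment over the 11 pairs. In the levels of single genes 60.4% of all names did not overlap. No such share was taken for ratios of other gene pairs, so the count is a description only. EIF4A2 to EIF4A1 stood at 0.276, 0.290 and 0.272 at 0 h and at 0.781, 1.17 and 1.03 at 24 h, so that the lesser helicase gene came near the main one in summed FPKM. These sums include noncoding types, which held 74.1% of the typed FPKM of EIF4A2 at 0 h and 30.4% at 24 h. In EIF4A1 they held 4.30% and 6.31%, so the ratio is not that of the coding mRNAs. EIF4G3 to EIF4G1 went from 0.0702 to 0.222 on average and EIF4E3 to EIF4E from 0.0302 to 0.0822. The added 0.5 weighs on the last of these, whose ratio of plain FPKM was 0.0246 and 0.0726 on average. EIF4H to EIF4B fell in all libraries of 24 h, from 1.13 to 0.507. EIF4G2 to EIF4G1 went from 2.71 to 3.12, a smaller change, although the groups did not overlap. EIF1B to EIF1 (0.0733 and 0.0728), EIF3CL to EIF3C and EIF4E2 to EIF4E overlapped between 0 h and 24 h.

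**Figure D4:**
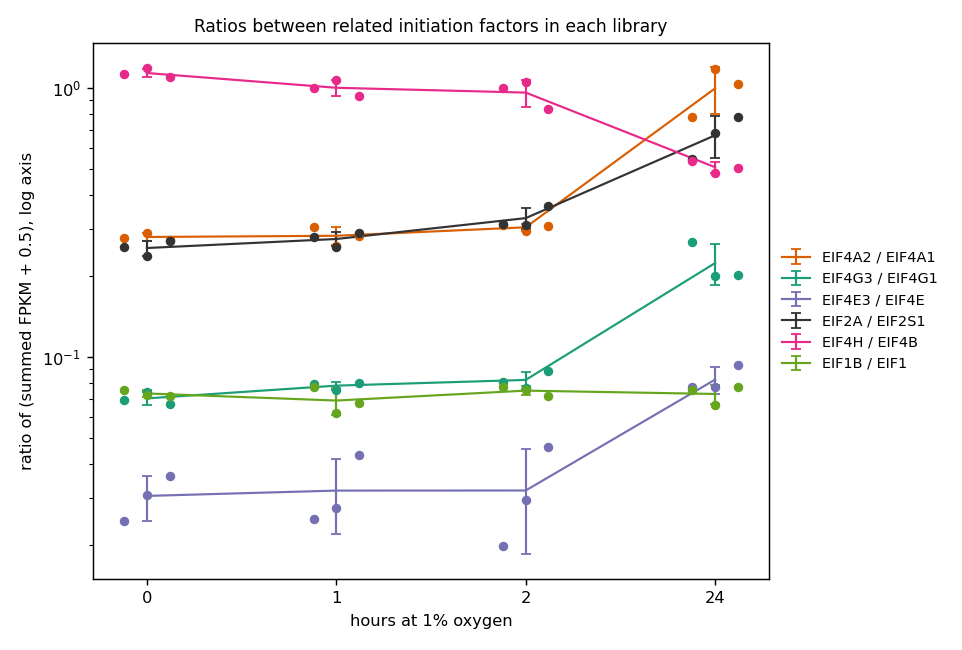
Ratio of summed FPKM + 0.5 of related initiation factors in each of the 12 libraries (points; log axis), with the mean and SD of 3 libraries (lines and bars; the time axis is not to scale). EIF4A2 to EIF4A1 lies at 0.259 to 0.310 in the 9 libraries of 0, 1 and 2 h and at 0.781 to 1.17 at 24 h, and EIF1B to EIF1 stays level.

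The pyrimidine start described above was then set beside the changes at 24 h. A C at the first transcribed base followed by at least 4 pyrimidines (C or T) on the transcribed strand was found in 4.07% of the 35116 RefSeq entries, in 7.49% of the 9443 tested gene names with an entry, and in 9 of the 39 tested members with an entry (23.1%). The 9 were EIF2A, EIF2D, EIF2S3, EIF3D, EIF3F, EIF3K, EIF3M, EIF4A2 and EIF4B. Their log2 fold changes ran from -0.50 to 1.11 with a median of 0.11, 3 rose, 2 fell and 0 were called lower, beside 25.0%, 30.3% and 9.51% of all names. Of the 30 members without it, 2 rose, 22 fell and 10 were called lower, with a median of -0.80. Over all tested names with an entry the medians were 0.17 with the run and -0.05 without it. EIF2S2, EIF2S3L, EIF3A, EIF3CL, EIF3E, EIF3G, EIF3H and EIF3L had no entry. The motif was chosen after the values were seen, a match is a description of the annotated start and not evidence that the start is used in HCT116, and no test was made.

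Which transcripts of a gene were used was tested apart from its level, as the log2 ratio of each transcript to the other transcripts of the gene. At 24 h, 14 of 43 members with at least 2 transcripts changed isoform usage (32.6%, adjusted p under 0.05), against 27.6% of the 10680 gene names tested, so members changed at about the rate of all names. The 14 were EIF4A2, EIF3F, EIF2B1, EIF2B5, EIF2S1, EIF4G1, EIF3D, EIF3C, EIF3CL, EIF4E, EIF2S3, EIF1AD, EIF4B and EIF3B. At 1 h and 2 h 0 of 43 passed (0.0187% and 0.00936% of all names), with 0 and 2 at an unadjusted p under 0.05. The count changed with the setting, as did the share of all names. It was 6 without replicate 1 of 0 h (15.4% of all names), 7 without replicate 3 of 0 h (18.8%), 6 without replicate 2 of 24 h (17.4%) and 8 without replicate 3 of 24 h (22.2%). It was 5 when only the 6 libraries of the contrast were fitted (10.3% of all names), 23 with a pseudocount of 1 (36.6%) and 16 with diffSplice (29.1%).

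EIF4A2 had the lowest adjusted p for isoform usage (0.00096, and 0.0021 to 0.0061 with each library left out). Its coding transcript ENST00000323963 held 8.36%, 4.35% and 6.28% of the FPKM of the gene at 0 h, 11.2%, 14.4% and 21.4% at 1 h, 24.4%, 14.2% and 25.6% at 2 h, and 44.9%, 47.6% and 54.8% at 24 h. Its share stood above every 0 h library at each later time, although usage at 1 h and 2 h did not pass the test (adjusted p = 0.98 and 0.45). In mean FPKM it went from 13.7 to 223. ENST00000425053, a transcript annotated as a target of nonsense-mediated decay (NMD), the pathway that removes mRNAs with an early stop codon, went the other way, from 16.2% ± 1.2 to 1.5% ± 0.5 of the gene. A second coding transcript, ENST00000440191, held 19.5% and 20.5%. Summed over types, coding EIF4A2 transcripts rose from 66.9, 53.4 and 48.8 FPKM to 234, 366 and 344 with no overlap, whereas noncoding types (NMD, retained intron and other types without a coding sequence) were at 160, 173 and 149 and at 119, 176 and 115, which overlap.

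**Figure D5:**
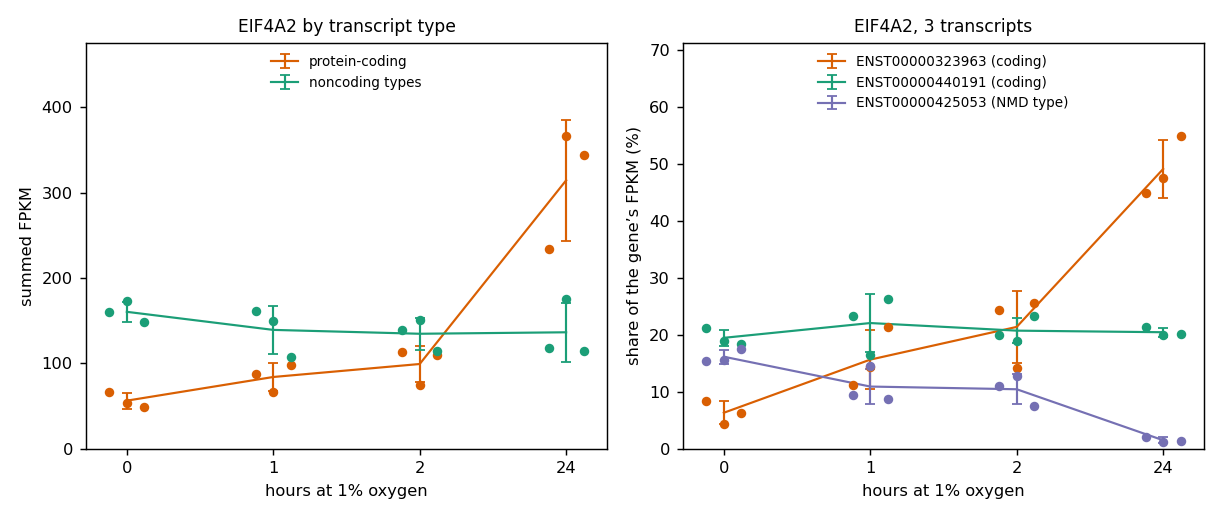
EIF4A2 in the 12 libraries: left, FPKM summed over protein-coding and noncoding transcript types; right, share of the FPKM of the gene held by 3 annotated transcripts (points; lines and bars, mean and SD of 3 libraries; the time axis is not to scale). Coding FPKM is highest in the 3 libraries of 24 h, and ENST00000323963 goes from 6.3% to 49.1% of the gene on average.

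In 3 other members the transcripts that moved were of different kinds. EIF2B5 kept its summed level, but its main transcript ENST00000273783 went from 72.5% ± 2.9 to 49.6% ± 4.5 of the FPKM and the retained-intron transcript ENST00000465218 from 1.5% ± 0.6 to 13.3% ± 0.5. In EIF2S1 the coding transcript ENST00000466499 went from 8.17 to 0.104 FPKM, while the 2 largest transcripts, both of the retained-intron type, held 37.3% and 31.8% at 0 h and 38.7% and 31.2% at 24 h. In EIF2B1 the coding transcript ENST00000537073 went from 3.0% ± 0.9 to 9.6% ± 1.5, at about the same FPKM (1.01 and 1.09) while the rest of the gene fell. Isoform usage of EIF2B1 did not pass with diffSplice (adjusted p = 0.15) or when only the 6 libraries of the contrast were fitted (adjusted p = 0.051).

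The noncoding share, the part of a gene's typed FPKM held by transcripts without a coding type, moved little in most members. Of 42 members with a noncoding transcript, 27 gained share and 15 lost it at 24 h (64.3% gained, against 55.0% of 9945 names), with a median change of 0.49 percentage points (0.28 over all names). The groups did not overlap in 12 of the 42 (28.6%, against 20.9%), 8 gaining and 4 losing. The median change was 0.19 without replicate 1 of 24 h and 0.13 without replicate 3 of 24 h. The largest loss was in EIF4A2, from 74.1% ± 3.1 at 0 h through 62.1% at 1 h and 57.6% at 2 h to 30.4% ± 4.7 at 24 h.

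Further losses were in EIF4E3 (from 12.4% with an SD of 21.4 to 2.39%, overlapping) and EIF4A3 (from 100% to 93.6%, overlapping). The gains were largest in EIF3F, EIF5A2 and EIF4G1. EIF5A2 went from 9.74%, 2.00% and 12.10% to 32.2%, 32.4% and 12.15%, so that replicate 3 of 24 h was level with the highest at 0 h. EIF4G1 went from 7.61% ± 1.71 to 13.7% ± 4.02, which overlap. The shares of EIF3F and EIF4A3 describe little of these genes, since their main transcripts have no type in GENCODE release 44 and the typed transcripts held 4.85% and 0.472% of their FPKM at 0 h. EIF2B5 counts as a loss (from 88.1% to 85.6%, overlapping), but only 26.8% of its FPKM was typed at 0 h and 50.3% at 24 h. Its direction is therefore that of the typed part and not of the whole gene. With each of the 42 members tested by the exact permutation test, the lowest adjusted p was 0.35, and 3 against 3 libraries cannot go below an unadjusted 0.1.

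Genes that act on the initiation factors were described from lists of 39 names, of which 38 were tested and 27 passed at 24 h with an adjusted p under 0.05, 13 higher and 14 lower. That is 71.1% of the 38, 34.2% higher and 36.8% lower, against 55.3%, 25.0% and 30.3% of all names, and with 2 to 11 genes a list the counts below are descriptions only. Of the 4 eIF2 kinases, EIF2AK3 (PERK, the kinase of the endoplasmic reticulum) rose from 4.77 to 5.13 FPKM at 0 h to 9.59 to 11.03 at 24 h (0.96, adjusted p = 1.9e-05; 0.15 on TPM over all transcripts), EIF2AK2 (PKR, the kinase activated by double-stranded RNA) fell by 0.80, and EIF2AK1 and EIF2AK4 did not pass. The phosphatase adaptors PPP1R15A and PPP1R15B, which undo the phosphorylation of eIF2, had log2 fold changes of 0.19 and 0.23 (adjusted p = 0.28 and 0.069).

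Of 11 tested genes of cap control, 5 rose and 3 fell, with a median of 0.08. MKNK2, a kinase of eIF4E, rose from 38.9 to 49.5 FPKM to 210 to 223 (2.32, adjusted p = 1.4e-06). PDCD4, which binds and inhibits eIF4A, rose from 10.0 to 17.1 FPKM to 52.2 to 83.1 (2.43, adjusted p = 6.3e-05). CTIF, a partner of the nuclear cap-binding complex in translation, rose from 2.68 ± 0.380 to 7.88 ± 1.05 FPKM (1.40, adjusted p = 1.2e-05). NCBP1, the large subunit of the nuclear cap-binding complex, fell from 27.3 ± 2.39 to 7.77 ± 1.29 FPKM (-1.76, adjusted p = 1.1e-06). EIF4EBP1, which sequesters eIF4E, was at 50.7 ± 0.705 and 63.1 ± 4.99 FPKM (0.31, adjusted p = 0.050) and EIF4EBP2 fell by 0.47.

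Of the 5 poly(A)-binding proteins and partners, 3 rose and 1 fell, with a median of 0.62. PABPC1, the cytoplasmic poly(A)-binding protein that touches eIF4G, rose from 1986 ± 58.9 to 3147 ± 106 FPKM (0.66, adjusted p = 5.9e-05; -0.21 on TPM over all transcripts), and PAIP2 and PAIP2B, which inhibit it, rose by 0.62 (-0.24 on TPM over all transcripts) and 1.15 (0.36 on TPM over all transcripts, adjusted p = 0.30). All 5 genes of scanning, reinitiation and recycling fell, by 0.53 to 1.31, with a median of -0.68 and DHX29, a helicase of scanning, lowest, then ABCE1 (-1.05), which splits ribosomes, and DENR (-0.68). Of 11 elongation and termination factors, 4 rose and 4 fell, with a median of -0.10: EEF2, the translocase, rose by 0.98 (0.10 on TPM over all transcripts), while ETF1, the release factor, and EEF1E1, a scaffold protein of aminoacyl-tRNA synthetases, fell by 1.41 and 1.45.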

How the data were processed

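The deposited table holds FPKM per transcript and library. The authors aligned paired reads to hg19 with Mapsplice, built transcripts per sample with Cufflinks and merged them with Ensembl. Here FPKM of class code = and j transcripts was summed per gene name, without rescaling. Gene names with FPKM above 0.5 in at least 3 of 12 libraries were tested with limma 3.58.1 (R 4.3.3; lmFit, eBayes with trend) on log2(FPKM + 0.5), all time points in 1 fit, Benjamini-Hochberg adjusted over 16680 names; the scale understates changes of low genes. The study calls the replicates biological; same-numbered libraries of 0 h and 2 h deviated together (r 0.13 to 0.36), and the block changed no member call there. Isoform usage used log2 ratios of a transcript to the others, with Simes p per gene. Transcript types came from GENCODE release 44 on GRCh37, by reference transcript. Both fits were tested on simulated data. Figures used Python 3.11.15 with pandas 2.3.3, scipy 1.17.1 and matplotlib 3.10.9. Members and lists were chosen with earlier results of these data known. Genes named are those called, the 4 largest rises and falls, the most abundant of each group, paralogue pairs, the 5 lowest isoform-usage p and the 3 largest noncoding-share changes each way; further members are named to account for each group. Alternatives covered pseudocount, filters, scaling, transcript sets, left-out libraries and a replicate block.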

Additional observations from a re-analysis of the deposited data

How the results depend on the processing

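Counts of members called at 1 h and 2 h were 0 under each alternative run, except that on TPM over all transcripts 30 of 47 members passed an adjusted p under 0.05 at 2 h, where 54.5% of all names did and the median of all names was -0.88. That scaling also gave 22 members called at 24 h (24.6% of all names), 0 higher at an adjusted p under 0.05 (3.32% of all names), medians of -1.47 for eIF2, -1.29 for eIF3 and -1.21 for eIF4, 17 of the other pathway genes, and negative log2 fold changes for EIF3E (-0.48), EIF3F (-0.47), EIF3H (-0.56), EIF3L (-0.16), EIF4E3 (-0.072), EIF4G3 (-0.27), PABPC1 (-0.21) and PAIP2 (-0.24). Leaving out transcripts under 300 bases before rescaling to TPM gave medians of -0.71, -0.52 and -0.55. With median-of-ratios scaling they were -0.55 for eIF2 and -0.35 for eIF4. Class code = alone gave -0.98 for eIF2, -0.26 for eIF4 and 0.46 for EIF2S3. For eIF4 the median was -0.36 without the filter on low values, -0.44 over transcripts past FPKM 0.5 in 3 libraries and -0.46 over transcripts of at least 300 bases; for eIF2 it was -0.70 with numbered pseudogenes added, an alternative chosen after seeing the data. With 1 library left out in turn, 11 to 14 members were called at 24 h (16.1% to 19.4% of all names), the medians ranged from -0.68 to -0.55 for eIF2, -0.48 to -0.36 for eIF3 and -0.44 to -0.39 for eIF4, changed isoform usage from 6 to 12 members and the median noncoding-share change from 0.13 to 0.66 points. Isoform usage gave 23 members with a pseudocount of 1 and 5 when only the 6 libraries of the contrast were fitted. The causes were not tested. Restricting the noncoding share to members with at least 80% of FPKM typed, also chosen after seeing the data, gave a median of 0.60.

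Same-numbered libraries deviated together in 10 of 18 pairs (r over 0.1; range -0.08 to 0.43), in 1 of 3 pairs of 0 h and 24 h and in 2 of 3 of 0 h and 1 h, so the numbers were not taken as pairs for these contrasts. For 0 h and 2 h they did in 3 of 3; there the block raised the names passing an adjusted p under 0.05 from 0.312% to 1.65%, with 0 members among them. A fit with the replicate block gave 12 members called at 24 h (18.6% of all names) and 15 with changed isoform usage (24.8%), and added EIF1AD (adjusted p = 0.035) and EIF3D (adjusted p = 0.033) to those passing at 24 h. The files hold no counts, so precision rests on 3 libraries per time point. Members that also reached an adjusted p under 0.05 at 24 h were EIF1 (0.025) and EIF3D (0.016) with median-of-ratios scaling, EIF1AD (0.025) and EIF5A2 (0.021) on TPM, both again without transcripts under 300 bases (0.031 and 0.038), and, with 1 library left out, EIF1, EIF1AD, EIF3D and EIF5A2 (lowest adjusted p 0.024).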
